A study of Homo sapiens with 24 samples.

Results

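The 6 genes SNCG, METTL7A, BCAM, DHRS9, G0S2 and CDA were followed through every library of a study of genome doubling, the first 3 listed as higher in doubled HCC1806 cells and the last 3 as lower there. They are 6 of the 29744 genes in the count table, 3 on each side, and they were picked by name because earlier results on these same HCC1806 libraries had placed them among the genes shared by all doubled populations. HCC1806 and MDA-MB-231 are established human lines of triple-negative breast cancer, the first with basal epithelial features and the second with mesenchymal ones. In each line there were 4 populations: cells whose genome had doubled when cells fused, when a cell slipped out of mitosis undivided (mitotic slippage) or when cytokinesis failed, and the parental aneuploid cells kept as control. The doubled cells had been isolated by flow sorting and expanded, and each route in each line was represented by 1 such population, so a route and its population cannot be told apart. All populations were plated alike and grown for 48 hours before RNA was taken, and the labels name no drug or other agent for this step. Each of the 8 groups had 3 biological replicates, read by TAGseq, which sequences the 3′ ends of polyadenylated transcripts.

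The 6 genes have different known roles. SNCG encodes gamma-synuclein, a small soluble protein of the synuclein family that is known from advanced breast tumours. METTL7A, now named TMT1A, encodes a membrane methyltransferase of the endoplasmic reticulum and lipid droplets that methylates thiols. BCAM is a cell-surface receptor of the immunoglobulin superfamily that carries the Lutheran blood group antigens and binds the laminin alpha-5 chain of basement membranes. DHRS9 is a short-chain dehydrogenase that oxidises retinol on the way to retinoic acid and also acts on steroids. G0S2 is an inhibitor of adipose triglyceride lipase (PNPLA2), the enzyme that opens the breakdown of stored triglyceride. CDA, cytidine deaminase, turns cytidine and deoxycytidine into uridine and deoxyuridine and inactivates gemcitabine and related drugs.

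Totals of estimated counts ran from 3060622 to 4030297 per library in HCC1806 and from 2455707 to 3837957 in MDA-MB-231. The line labels matched their markers. KRT5, KRT6A, KRT14, KRT17 and CDH1 had at most 1 count in any MDA-MB-231 library, EPCAM had 35 to 66, and VIM had at most 7 in any HCC1806 library, although SPARC, listed as a mesenchymal marker, had at most 4 counts in MDA-MB-231. The 9 listed markers of blood, endothelial and stromal cells summed to 2.45 to 7.31 CPM (counts scaled to a common library size) in HCC1806 and to 3.73 to 10.8 CPM in MDA-MB-231, with CD3E at 0 throughout. In HCC1806 the 6 basal epithelial markers summed to 1364 to 1425 CPM in fusion libraries, 1354 to 1401 CPM in slippage libraries and 1288 to 1348 CPM in cytokinesis-failure libraries, against 1505 to 1596 CPM in control libraries, so they were lower in all doubled libraries, and their part in the results below was not tested. In MDA-MB-231 the 9 markers of other cells summed to 5.17 to 8.996 CPM in fusion libraries, 6.38 to 7.82 CPM in slippage libraries and 8.65 to 10.8 CPM in cytokinesis-failure libraries, against 3.73 to 6.23 CPM in control libraries. The 5 mesenchymal markers summed to 3651 to 3784 CPM in fusion libraries, 3416 to 3632 CPM in slippage libraries and 3464 to 3841 CPM in cytokinesis-failure libraries, against 3427 to 3461 CPM in control libraries. The part of either marker list in the G0S2 and CDA results of that line was not tested. MDA-MB-231 slippage replicate 3 and cytokinesis-failure replicate 1 differed more from the other replicates of their groups than the remaining libraries did, so results that rest on them are also given without them where this changed a call. Levels below are CPM after TMM scaling within each line, and because they are shares of a library, fewer cells of a type and less RNA per cell cannot be told apart.

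Of the 6 genes listed as shared by all doubled routes, 4 met that description. A gene is called here where edgeR's quasi-likelihood test, adjusted by Benjamini-Hochberg over all genes of the line, gave p below 0.05. By that measure all 6 genes were called in the fusion population and all 6 in the cytokinesis-failure population, 3 higher and 3 lower in each. Of all 11467 genes tested, 10.9% were called in the fusion population (5.33% higher, 5.55% lower) and 17% in the cytokinesis-failure population (8.37% higher, 8.63% lower). In the slippage population, where 3.33% of genes were called (1.53% higher, 1.81% lower), SNCG, BCAM, DHRS9 and G0S2 passed, whereas METTL7A (edgeR adjusted p = 0.0951) and CDA (adjusted p = 0.178) did not. Since these contrasts chose the genes, the counts describe the choice and test nothing. In all 6 genes the 3 libraries of every doubled population lay wholly on one side of the 3 control libraries. Over all 11467 genes tested this held for 26.7% in the fusion population, 18.1% in the slippage population and 31.7% in the cytokinesis-failure population, and nothing is read from the comparison.

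The study held 148 genes called the same way in all 3 doubled HCC1806 populations, 78 higher and 70 lower. Ranked by the mean of the 3 log2 fold changes, BCAM (1.12) and SNCG (1.07) stood at ranks 1 and 2 of the higher side, just ahead of the cytidine deaminase APOBEC3B (0.97). DHRS9 (-1.60) and G0S2 (-1.48) stood at ranks 4 and 5 of the lower side, between SPANXD (-1.68) and PI3 (-1.37). METTL7A and CDA are not among the 148.

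**Figure D1:**
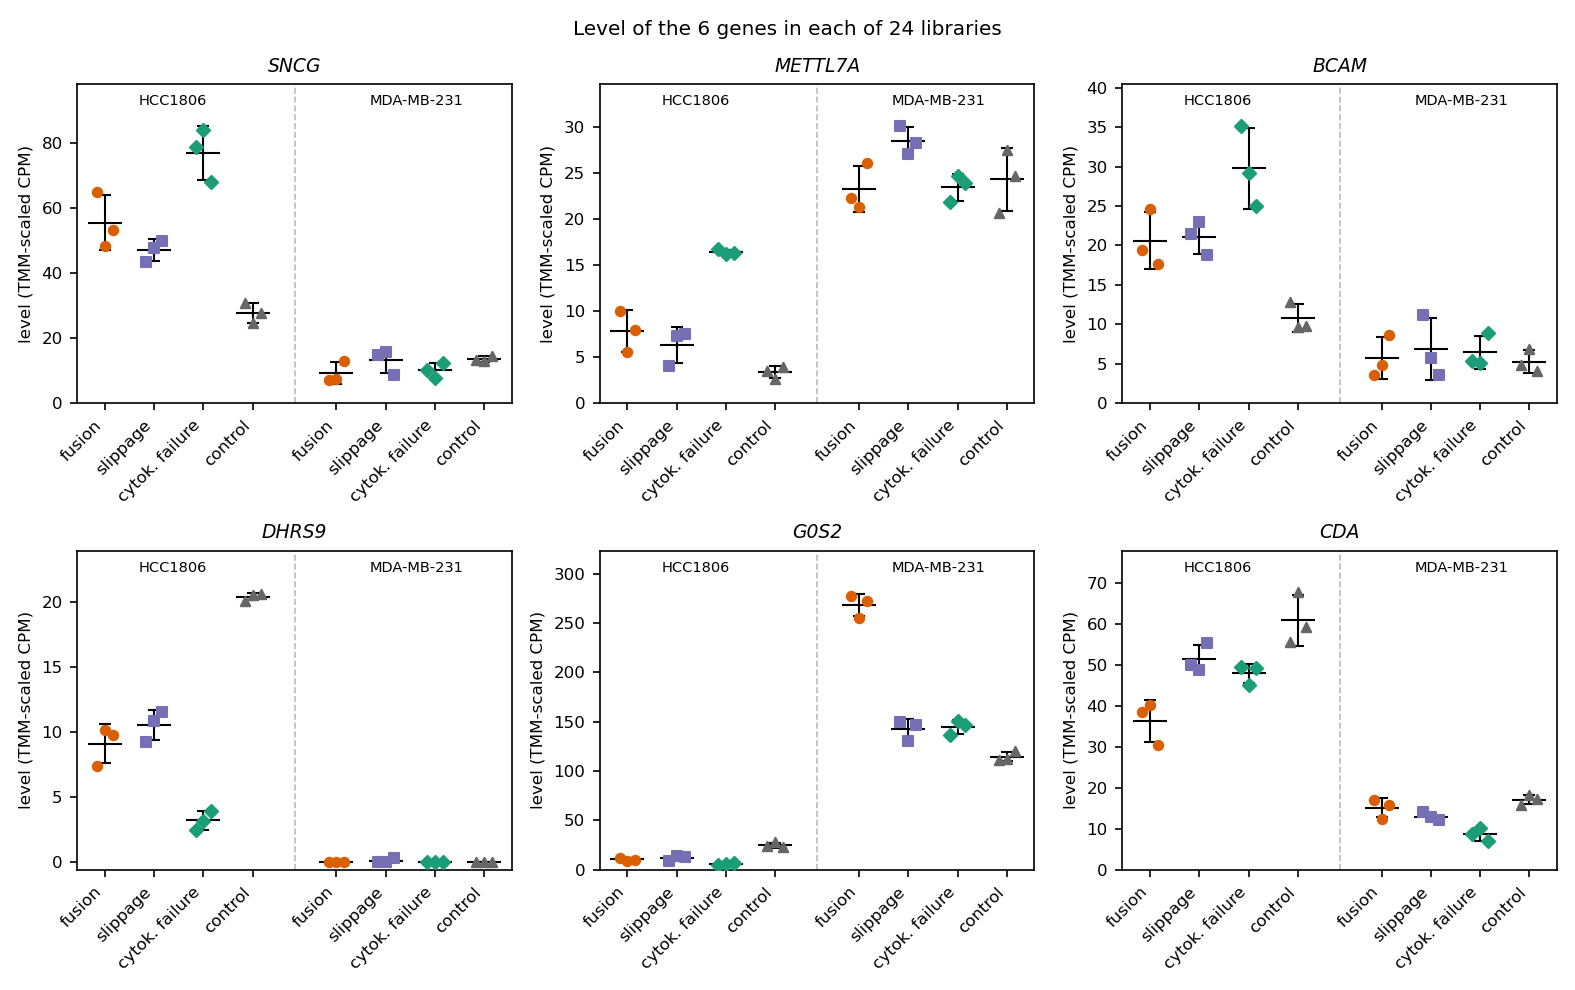
Level of each of the 6 genes, in TMM-scaled CPM, in each of the 24 libraries; points are libraries, and the bar and whiskers are the mean and SD of 3 replicates. In HCC1806 (left of the dashed line) every doubled library lies on one side of the control libraries for all 6 genes, while in MDA-MB-231 G0S2 is highest in the fusion libraries and DHRS9 is at or near 0.

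SNCG was higher in every doubled HCC1806 population, most of all after cytokinesis failure. HCC1806 libraries held 64.9, 48.5 and 53.3 CPM of SNCG in the fusion population, 43.3, 47.8 and 49.9 CPM in the slippage population and 79.0, 84.0 and 67.9 CPM in the cytokinesis-failure population, against 30.8, 24.5 and 27.7 CPM in control. All 9 doubled libraries were above all 3 control libraries, and the cytokinesis-failure libraries were above all others. As a description, the log2 fold change over control was 1.00 ± 0.11 (SE) in the fusion population, 0.75 ± 0.12 in the slippage population and 1.46 ± 0.10 in the cytokinesis-failure population, the last a 2.76-fold difference. In MDA-MB-231 the gene was at 7.21, 7.30 and 13.0 CPM in the fusion population, 14.9, 15.9 and 8.72 CPM in the slippage population and 10.3, 7.70 and 12.4 CPM in the cytokinesis-failure population, against 13.2, 12.8 and 14.6 CPM in control. There the control libraries were close together, and the doubled populations spread around or below them.

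SNCG lies at chr10:86955759-86963258 on the plus strand (GRCh38.p14, RefSeq), inside the antisense gene MMRN2. Strand handling of the counting is not given in the sources used here. MMRN2 itself had 2 to 13 counts in HCC1806 libraries and 0 or 1 in MDA-MB-231 libraries, while SNCG had 74 to 322 counts in HCC1806 libraries. RefSeq lists 2 starts for SNCG. The 250 bases before the downstream one are shown for the only match of the gene to any of the 5 promoter motifs searched, a GC box. BCAM below also holds GC boxes, and METTL7A, also on the higher side, holds none. The GC box occurred in 42.6% of 35116 RefSeq promoter windows, so nothing is read from it. Capitals mark a GC box, the core letters bound by SP1, searched on both strands.
SNCG start 2, chr10:86958349-86958598: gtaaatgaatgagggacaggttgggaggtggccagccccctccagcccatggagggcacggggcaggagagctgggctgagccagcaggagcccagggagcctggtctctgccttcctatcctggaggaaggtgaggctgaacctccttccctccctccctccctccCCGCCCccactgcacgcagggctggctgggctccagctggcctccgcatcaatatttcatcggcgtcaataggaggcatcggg

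METTL7A had the largest fold difference of the 3 higher genes in the fusion and cytokinesis-failure populations, and rested on few counts. Fusion libraries of HCC1806 held 10.0, 5.52 and 7.92 CPM, slippage libraries 4.08, 7.33 and 7.50 CPM and cytokinesis-failure libraries 16.7, 16.2 and 16.3 CPM, against 3.54, 2.65 and 3.88 CPM in control. The cytokinesis-failure replicates almost coincided, while the lowest slippage library, with 15 counts, was barely above the highest control library, with 15 counts in a slightly larger total. The log2 fold changes over control were 1.19 ± 0.28, 0.87 ± 0.30 and 2.26 ± 0.24 for fusion, slippage and cytokinesis failure, and on log2(TPM + 1) they were 0.66, 0.47 and 1.55, since an offset of 1 weighs more at such a level. With 1 replicate left out, edgeR's adjusted p for slippage ran from 0.0323 (without slippage replicate 1) to 0.348. The contrast chose the gene, so these values are a description. In MDA-MB-231 the gene was at 20.7 to 30.1 CPM in all 12 libraries, above every HCC1806 library, and the groups overlapped. METTL7A lies at chr12:50925015-50932508, plus strand (GRCh38.p14).

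BCAM was higher by about the same factor in the fusion and slippage populations of HCC1806. Its levels were 19.5, 24.7 and 17.7 CPM in fusion libraries, 21.5, 22.9 and 18.7 CPM in slippage libraries and 35.1, 29.2 and 25.0 CPM in cytokinesis-failure libraries, against 12.8, 9.61 and 9.83 CPM in control libraries. No doubled library reached down to the control range, and the cytokinesis-failure libraries were above all fusion and slippage libraries. The log2 fold changes were 0.93 ± 0.18 in the fusion population, 0.96 ± 0.17 in the slippage population and 1.46 ± 0.16 in the cytokinesis-failure population. In MDA-MB-231 BCAM was scarce, with 11 to 37 counts and 3.61 to 11.2 CPM per library, and the 4 groups overlapped throughout.

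BCAM lies at chr19:44809059-44821421 on the plus strand (GRCh38.p14). RefSeq lists 2 starts for BCAM, and the window of the first is shown. The BCAM windows were the richest in G and C of the 6 genes, at 76.0% and 78.8%, followed by G0S2 at 69.2%. The median over 35116 RefSeq promoter windows was 58.0%. The window shown held 5 matches to GGGCGG, in capitals.
BCAM start 1, chr19:44808809-44809058: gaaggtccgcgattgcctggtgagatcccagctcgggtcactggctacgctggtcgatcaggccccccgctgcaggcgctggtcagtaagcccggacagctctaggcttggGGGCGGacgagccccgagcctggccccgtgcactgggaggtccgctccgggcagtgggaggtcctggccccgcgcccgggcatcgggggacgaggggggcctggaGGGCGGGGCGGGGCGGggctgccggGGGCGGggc

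DHRS9 was lower in every doubled HCC1806 population, with the largest difference of the 6 genes after cytokinesis failure, and was close to undetected in MDA-MB-231. Fusion libraries held 7.37, 10.2 and 9.75 CPM, slippage libraries 9.26, 10.8 and 11.5 CPM and cytokinesis-failure libraries 2.49, 3.13 and 3.95 CPM, against 20.1, 20.6 and 20.7 CPM in control. The control libraries almost coincided, fusion and slippage overlapped each other, and cytokinesis failure was lowest, with 10 to 16 counts per library. The log2 fold changes over control were -1.17 ± 0.18, -0.96 ± 0.18 and -2.67 ± 0.22 for fusion, slippage and cytokinesis failure, so that control held 6.35 times the level of the cytokinesis-failure population. In MDA-MB-231, 11 of 12 libraries had no DHRS9 count and 1 slippage library had 1. A floor of 3 counts per library puts DHRS9 in HCC1806 at least 9.58-fold higher than in MDA-MB-231 in the fusion populations, at least 11.6-fold in the slippage populations, at least 2.61-fold in the cytokinesis-failure populations and at least 21.9-fold in the control populations, for counting error only. The gene was therefore not fitted in MDA-MB-231.

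DHRS9 lies at chr2:169067077-169096167 on the plus strand (GRCh38.p14), with 4 starts in RefSeq. All 4 windows are poor in G and C, at 39.2%, 35.2%, 29.6% and 36.4% from the first to the fourth, unlike those of BCAM. The first is shown for a TATAAA match close to the start and the second as the only window of the 6 genes with an AP-1 match. The first has 2 TATAAA matches, one of them 32 bases before the start, and the second has 1 TATAAA match and 1 TGANTCA match, the letters of an AP-1 element, 48 bases before the start. Capitals mark these matches.
DHRS9 start 1, chr2:169066827-169067076: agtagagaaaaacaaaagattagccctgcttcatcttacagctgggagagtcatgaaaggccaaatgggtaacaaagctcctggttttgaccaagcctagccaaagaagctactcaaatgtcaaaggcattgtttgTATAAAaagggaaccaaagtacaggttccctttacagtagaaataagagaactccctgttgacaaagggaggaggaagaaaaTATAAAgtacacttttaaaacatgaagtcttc
DHRS9 start 2, chr2:169069313-169069562: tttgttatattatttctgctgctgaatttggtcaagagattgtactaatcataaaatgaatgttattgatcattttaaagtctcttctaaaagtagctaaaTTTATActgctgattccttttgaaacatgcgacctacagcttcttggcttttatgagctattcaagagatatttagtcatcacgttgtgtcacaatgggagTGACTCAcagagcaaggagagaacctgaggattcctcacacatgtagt

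G0S2 was lower in doubled HCC1806 cells and higher in doubled MDA-MB-231 cells. HCC1806 held 12.1, 8.998 and 10.1 CPM in fusion libraries, 9.26, 13.4 and 12.7 CPM in slippage libraries and 4.23, 5.74 and 6.67 CPM in cytokinesis-failure libraries, against 23.7, 27.5 and 22.8 CPM in control libraries. MDA-MB-231 held 277, 255 and 272 CPM in fusion libraries, 150, 130 and 147 CPM in slippage libraries and 137, 150 and 146 CPM in cytokinesis-failure libraries, against 111, 113 and 120 CPM in control libraries. Every doubled HCC1806 library was below its controls and every doubled MDA-MB-231 library above its own. The HCC1806 log2 fold changes were -1.24 ± 0.17 for fusion, -1.07 ± 0.17 for slippage and -2.14 ± 0.19 for cytokinesis failure, again a description. The MDA-MB-231 populations had the higher level throughout, by 25.8-fold in fusion, 12.1-fold in slippage, 26.0-fold in cytokinesis failure and 4.65-fold in control, with the lines scaled apart and no test made.

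G0S2 is a short gene at chr1:209675412-209676390 on the plus strand (GRCh38.p14), and an antisense gene, AL031316.1, runs across it and was not analysed here. Its upstream window is shown as the one before the gene called in every doubled population of both lines. It had no match to any of the 5 motifs.
G0S2, chr1:209675162-209675411: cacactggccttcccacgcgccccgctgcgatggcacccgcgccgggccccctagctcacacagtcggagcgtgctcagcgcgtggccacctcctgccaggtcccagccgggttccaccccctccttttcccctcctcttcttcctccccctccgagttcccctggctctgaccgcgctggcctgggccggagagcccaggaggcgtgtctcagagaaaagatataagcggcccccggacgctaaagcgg

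CDA differed from the other 5 genes in its order. HCC1806 levels were 38.3, 40.1 and 30.5 CPM in fusion libraries, 49.8, 48.7 and 55.4 CPM in slippage libraries and 49.3, 45.1 and 49.2 CPM in cytokinesis-failure libraries, against 55.5, 67.6 and 59.2 CPM in control libraries. The fusion population was lowest, and the highest slippage library stood just under the lowest control library. The log2 fold changes over control were -0.73 ± 0.10 in the fusion population, -0.23 ± 0.09 in the slippage population and -0.33 ± 0.09 in the cytokinesis-failure population. The last of these did not pass the threshold without control replicate 2 (adjusted p = 0.0689) or in DESeq2 (adjusted p = 0.0606). In MDA-MB-231, CDA was at 17.1, 12.5 and 15.8 CPM in fusion libraries, 13.98, 12.8 and 12.03 CPM in slippage libraries and 8.64, 10.3 and 6.98 CPM in cytokinesis-failure libraries, against 15.8, 18.1 and 17.3 CPM in control libraries. Here the cytokinesis-failure libraries were lowest. CDA lies at chr1:20589097-20618903 on the plus strand (GRCh38.p14).

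The choice of genes compared each doubled HCC1806 population with control and did not set the doubled populations against each other. The contrasts between routes reuse the doubled libraries whose values chose the genes, so they are not independent of the choice, and their p-values only set the distance between populations against the spread of replicates. Cytokinesis failure stood apart from fusion in all 6 genes, with 4 higher and 2 lower, where 17.9% of the 11467 genes tested were called (8.96% higher, 8.96% lower). SNCG (0.47 ± 0.09 on the log2 scale, edgeR adjusted p = 2.69e-05), METTL7A (1.07 ± 0.20, adjusted p = 2.63e-05) and BCAM (0.53 ± 0.14, adjusted p = 0.00364) were higher in cytokinesis failure than in fusion. DHRS9 (-1.50 ± 0.26, adjusted p = 3.92e-06) and G0S2 (-0.90 ± 0.23, adjusted p = 0.00194) were lower. CDA, lower than control in both, was higher in cytokinesis failure than in fusion (0.40 ± 0.10, adjusted p = 0.00255). The libraries of the paired populations did not overlap for any of the 6 genes, nor for 32.0% of all genes tested.

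The contrasts with slippage also reuse libraries whose values chose the genes, and the shares beside them are of unselected genes. Against slippage, cytokinesis failure differed in 5 of the 6 genes, 3 higher and 2 lower, where 6.8% of genes were called (2.72% higher, 4.08% lower). The differences were 0.71 ± 0.09 for SNCG (edgeR adjusted p = 5.81e-09), 1.39 ± 0.21 for METTL7A (adjusted p = 6.09e-07), -1.71 ± 0.25 for DHRS9 (adjusted p = 2.3e-07) and -1.07 ± 0.22 for G0S2 (adjusted p = 0.0004). BCAM differed by 0.50 ± 0.14 (adjusted p = 0.0147). CDA differed by -0.10 with a 95% interval of -0.29 to 0.09 and did not pass. Between fusion and slippage, where 9.23% of genes were called (4.2% higher, 5.02% lower), CDA alone of the 6 passed, at -0.50 ± 0.10 (adjusted p = 0.000308). The other 5 genes had intervals of 0.05 to 0.44 (SNCG), -0.17 to 0.82 (METTL7A), -0.33 to 0.28 (BCAM), -0.62 to 0.20 (DHRS9) and -0.57 to 0.23 (G0S2).

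The BCAM differences depended on single libraries. Against fusion, BCAM missed the threshold without cytokinesis-failure replicate 1 (edgeR adjusted p = 0.0871) and in DESeq2 (adjusted p = 0.0529). Against slippage it missed it without that same library (adjusted p = 0.199), without slippage replicate 3 (adjusted p = 0.105), in DESeq2 (adjusted p = 0.123) and on log2(TPM + 1) with limma (adjusted p = 0.0722). CDA against fusion missed it without fusion replicate 3 (adjusted p = 0.0666). SNCG between fusion and slippage passed it only without fusion replicate 2 (0.34, adjusted p = 0.0449). For cytokinesis failure against slippage, DESeq2 gave no adjusted p for METTL7A, DHRS9 and G0S2. Its log2 fold changes for them were 1.39, -1.72 and -1.08.

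**Figure D2:**
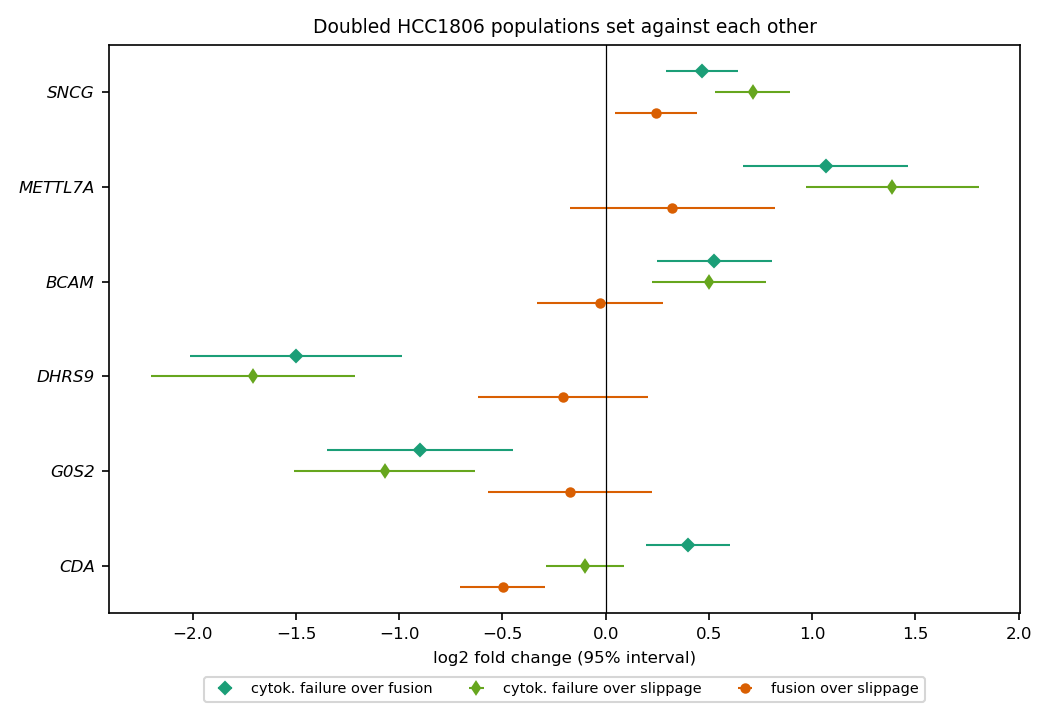
Log2 fold change between doubled HCC1806 populations for the 6 genes, with 95% intervals derived from the edgeR test. Positive values are higher in the population named first in the legend. Cytokinesis failure lies away from 0 for SNCG, METTL7A, BCAM, DHRS9 and G0S2 against both other routes, while for CDA the interval against slippage spans 0 and fusion is the population that stands apart.

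The rule that chose the genes used no MDA-MB-231 library, so the contrasts of that line can be tested. Of the 5 genes fitted, G0S2 was called in all 3 doubled populations and CDA in 1, and SNCG, METTL7A and BCAM in none. One gene of 5 was called in the fusion population, where 17.4% of 11424 genes were called (9.34% higher, 8.11% lower). In the slippage population it was again 1 of 5, where 6.18% were called (3.27% higher, 2.91% lower), and in the cytokinesis-failure population 2 of 5, where 4.64% were called (2.29% higher, 2.35% lower). The 3 contrasts share their control libraries.

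G0S2 rose in all 3 doubled MDA-MB-231 populations, the opposite of its direction in HCC1806. Its log2 fold change over control was 1.23 ± 0.07 in the fusion population (2.34-fold, edgeR adjusted p = 7.73e-18), at rank 2 of all genes tested there by p. It was 0.31 ± 0.07 in the slippage population (adjusted p = 0.00359) and 0.34 ± 0.07 in the cytokinesis-failure population (adjusted p = 0.00133), with no overlap with control in any of the 3, where 34.3% (fusion), 24.3% (slippage) and 22.2% (cytokinesis failure) of all genes tested did not overlap. The slippage call was lost on log2(TPM + 1) with limma (adjusted p = 0.0737). CDA fell in the cytokinesis-failure population by 0.98 ± 0.19 (adjusted p = 0.000766), the same direction as in HCC1806. In the slippage population CDA was at -0.40 ± 0.18 (adjusted p = 0.191) and in the fusion population at -0.18 ± 0.17 (adjusted p = 0.532).

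SNCG passed the test in no doubled MDA-MB-231 population, and its estimates were below 0. Its log2 fold changes over control were -0.56 (95% interval -1.04 to -0.08, edgeR adjusted p = 0.0981) in the fusion population, -0.04 (-0.47 to 0.40) in the slippage population and -0.43 (-0.90 to 0.03) in the cytokinesis-failure population. The fusion value passed the threshold in a fit of the 6 libraries compared (adjusted p = 0.0459) and without fusion replicate 3 (-0.90, adjusted p = 0.015), with SNCG lower in the doubled cells in both. METTL7A had intervals of -0.34 to 0.22 in the fusion population, -0.04 to 0.50 in the slippage population and -0.32 to 0.24 in the cytokinesis-failure population. These lie below the HCC1806 point estimates of METTL7A for the same routes, which chose the gene. For slippage the HCC1806 interval, 0.28 to 1.46, overlaps that of MDA-MB-231, and the lines were not tested against each other. BCAM had wide intervals, -0.68 to 0.95, -0.40 to 1.16 and -0.46 to 1.11 for fusion, slippage and cytokinesis failure, so that differences as large as the HCC1806 estimates for fusion and slippage lie inside them.

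**Figure D3:**
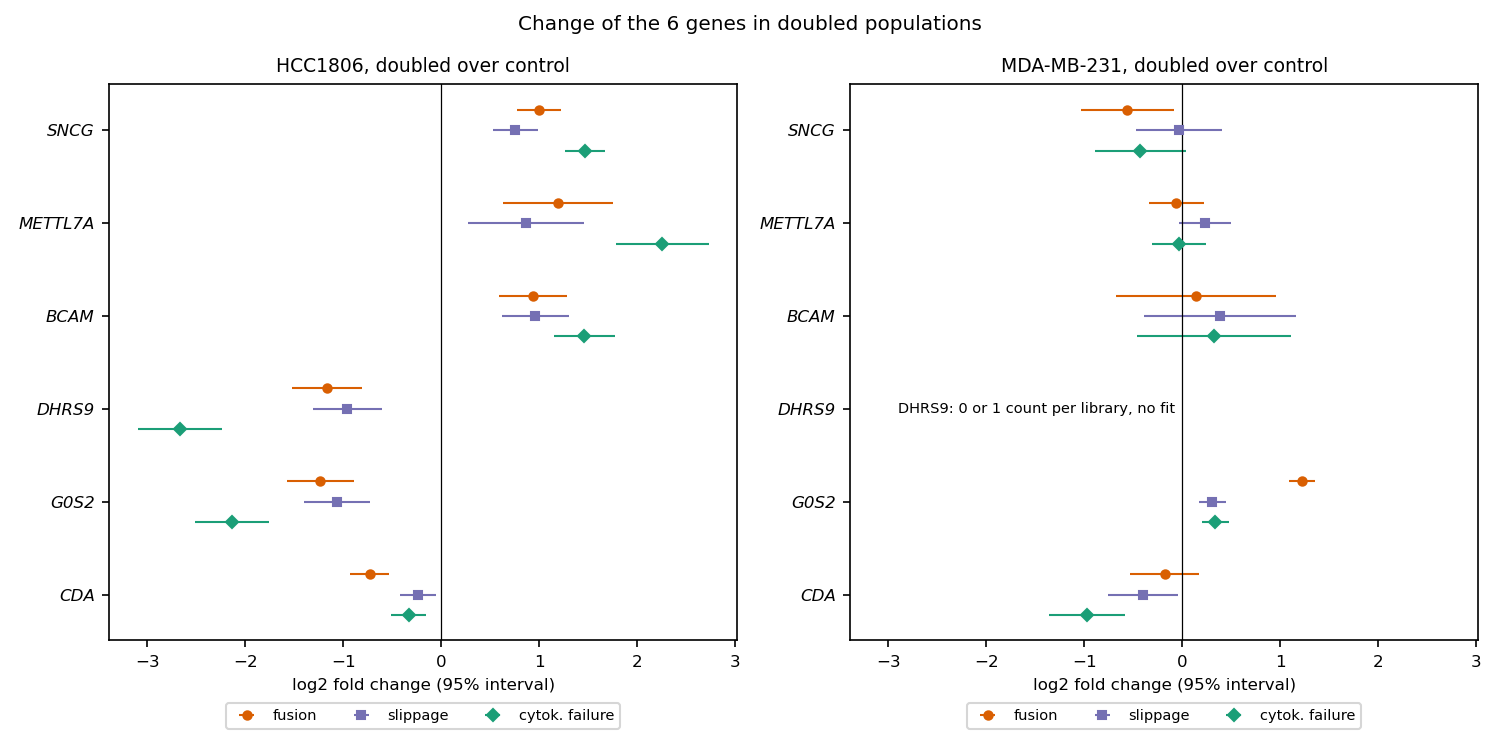
Log2 fold change of each doubled population over control for the 6 genes in HCC1806 (left) and MDA-MB-231 (right), with 95% intervals derived from the edgeR test. The HCC1806 values chose the genes. In HCC1806 the cytokinesis-failure point is the farthest from 0 for 5 genes and the fusion point for CDA, whereas in MDA-MB-231 G0S2 lies above 0 in all 3 populations and most other intervals span 0.

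BCAM binds laminin. Laminins are trimers of alpha, beta and gamma chains, and the list held 24 genes for laminins, nidogens, perlecan and laminin receptors. Like the lists below, it was chosen with earlier results of these data known, so its share of calls is a description. In HCC1806, 4 of 20 tested genes rose and 7 fell in the fusion population, 2 rose and 4 fell in the slippage population, and 4 rose and 6 fell in the cytokinesis-failure population. Those 11, 6 and 10 calls with edgeR stood at 10, 3 and 10 in DESeq2 and at 7, 2 and 9 with limma on log2(TPM + 1), and over all genes edgeR called 10.9%, 3.33% and 17%. The medians were 0.01, -0.05 and -0.03 on the log2 scale, beside a median over all genes within 0.01 of 0. LAMA5, the alpha-5 chain that BCAM binds, was at 70.7 ± 4.25 CPM in the fusion population, 66.9 ± 8.66 in the slippage population and 85.8 ± 8.30 in the cytokinesis-failure population, against 50.5 ± 4.89 CPM in control (SD, n = 3). It rose in all 3, by 0.48 ± 0.09 (edgeR adjusted p = 4.95e-05), 0.40 ± 0.09 (adjusted p = 0.00361) and 0.76 ± 0.08 (adjusted p = 1.45e-11) on the log2 scale, although the slippage call was lost without control replicate 2 or slippage replicate 3, in DESeq2 and on log2(TPM + 1), as was the fusion call on the last scale.

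LAMB3, the beta-3 chain found in the anchoring laminin of epithelial cells, fell in all 3 doubled HCC1806 populations. It fell by 0.49 ± 0.05 in the fusion population, by 0.50 ± 0.05 in the slippage population and by 1.06 ± 0.05 in the cytokinesis-failure population (edgeR adjusted p = 1.92e-12, 1.67e-12 and 2.87e-31). LAMA3, an alpha chain, fell in the fusion population and in the cytokinesis-failure population (-0.47 and -0.67) and did not pass in slippage (-0.18). ITGA6, the integrin alpha chain of hemidesmosomes, fell by 0.22, 0.19 and 0.51, the slippage value missing the threshold on log2(TPM + 1). The HCC1806 calls of LAMB3 were kept in each of the 13 alternatives run.

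In MDA-MB-231, 3 of 19 tested genes of the same list rose and 5 fell in the fusion population, 5 rose and none fell in the slippage population, and 2 rose and none fell in the cytokinesis-failure population. These 8, 5 and 2 calls with edgeR stood at 7, 2 and 1 in DESeq2 and at 9, 1 and 0 with limma, where edgeR called 17.4%, 6.18% and 4.64% of all genes, and the lists were not tested between lines. LAMB3 was at 138 ± 2.79 CPM in the fusion population and 114 ± 4.61 CPM in the slippage population, against 95.6 ± 1.70 CPM in control. It rose in both, by 0.53 ± 0.07 (edgeR adjusted p = 3.11e-07) and 0.26 ± 0.07 (adjusted p = 0.0202), the second being lost in 7 of 14 alternatives, leaving out any 1 control replicate among them. ITGA6 fell in the fusion population by 0.50 ± 0.05 (adjusted p = 4.1e-09). LAMA5 rose in the slippage population by 0.42 ± 0.09 (adjusted p = 0.00107).

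**Figure D4:**
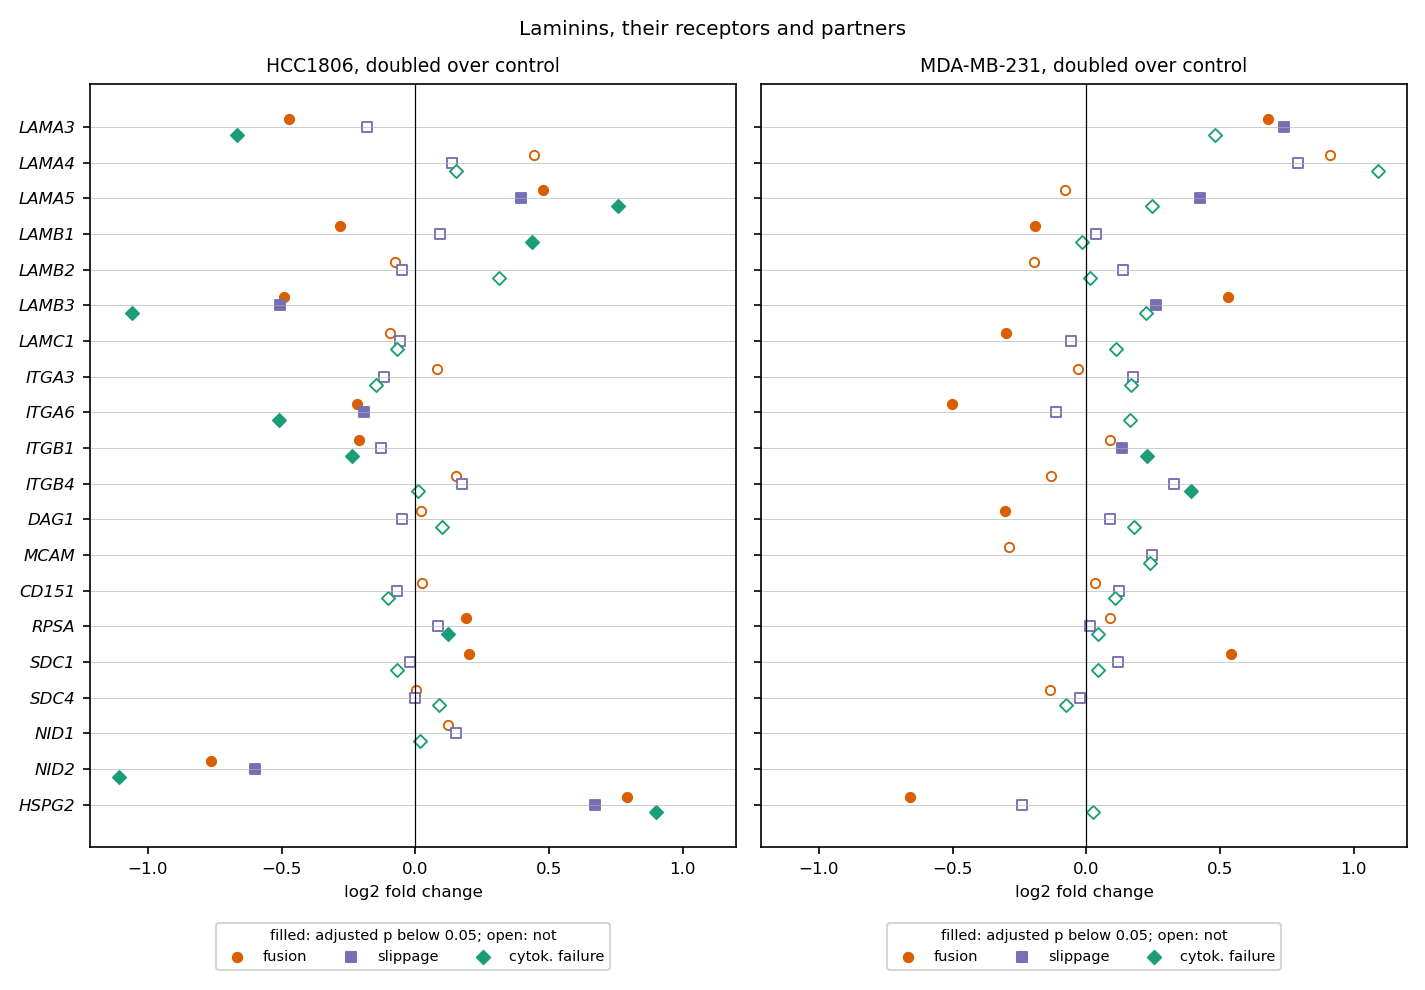
Log2 fold change over control of the laminins, their receptors and partner proteins reported here, by doubled population, in HCC1806 (left) and MDA-MB-231 (right); filled symbols passed an adjusted p below 0.05. LAMB3 and ITGA6 lie left of 0 and LAMA5 right of 0 in all 3 HCC1806 populations, and LAMB3 lies right of 0 in all 3 MDA-MB-231 populations, filled in 2.

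PNPLA2, the enzyme that G0S2 inhibits, was called in 1 of 6 contrasts with control, 0.27 ± 0.10 in the cytokinesis-failure population of HCC1806 (edgeR adjusted p = 0.0373), and that call was lost in 7 of 13 alternatives, among them leaving out either of 2 control replicates or 2 cytokinesis-failure replicates. ABHD5, which activates PNPLA2, was called in none, its log2 fold changes lying between -0.13 and 0.09. In the list of 27 lipid droplet genes in the table, 16 were tested in HCC1806 and 17 in MDA-MB-231. In HCC1806, 2 genes rose after fusion, 1 rose after slippage, and after cytokinesis failure 3 rose and 1 fell. That is 12.5%, 6.25% and 25.0% of the list, beside 10.9%, 3.33% and 17% of all genes, with medians of 0.01, 0.08 and 0.16, and DESeq2 called 1, 0 and 3. PLIN3, a droplet coat protein, rose by 0.24 ± 0.05 in the fusion population (adjusted p = 0.000624) and by 0.25 ± 0.05 in the cytokinesis-failure population (adjusted p = 0.000192). PLIN2, the other widespread coat protein, fell by 0.36 ± 0.07 in cytokinesis failure (adjusted p = 0.000158). In MDA-MB-231, 5 genes rose after fusion, 2 rose after slippage, and after cytokinesis failure 1 rose and 2 fell, beside 17.4%, 6.18% and 4.64% of all genes, while DESeq2 called 3, 0 and 0 and limma 1, 0 and 0. LPIN1, a phosphatidate phosphatase, rose by 0.84 ± 0.12 in the fusion population (adjusted p = 9.43e-07). DGAT2, which makes triglyceride, rose in all 3 populations, by 0.63 ± 0.19, 0.85 ± 0.18 and 0.69 ± 0.18 (adjusted p = 0.0149, 0.00186 and 0.0187), with 4, 1 and 6 alternatives losing the call.

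Retinoid handling is the setting of DHRS9. Of 35 listed genes in the table, 14 were tested in HCC1806, with 1 rising in the fusion population, none called in the slippage population (0 of 14 with edgeR, DESeq2 and limma, and 0 at an unadjusted p below 0.05) and 3 rising and 1 falling in the cytokinesis-failure population. These shares of 7.14%, 0 and 28.6% stand beside 10.9%, 3.33% and 17% of all genes, with medians of 0.11, 0.08 and -0.02. DHRS3, a relative of DHRS9 that works in the reverse direction on retinaldehyde, rose to 92.2 ± 2.67 CPM in cytokinesis failure, against 63.0 ± 1.73 CPM in control (0.55 ± 0.08, adjusted p = 1.43e-08). In MDA-MB-231 fusion it fell to 1.04 ± 0.15 CPM, against 3.46 ± 0.31 CPM in control (-1.70 ± 0.45, adjusted p = 0.00661). That fusion level is near the floor of 3 counts, 0.888 to 0.950 CPM in those libraries. In MDA-MB-231 slippage and cytokinesis failure DHRS3 was at 0.86 and 0.89 on the log2 scale, and neither passed. The retinoid receptor RXRA rose by 0.34 ± 0.05 in HCC1806 fusion (adjusted p = 1.05e-06), by 0.31 ± 0.05 in HCC1806 cytokinesis failure (adjusted p = 7.2e-06) and by 0.42 ± 0.06 in MDA-MB-231 cytokinesis failure (adjusted p = 1.09e-05). RARRES2, named for its response to retinoids, fell by 1.87 ± 0.25 in MDA-MB-231 fusion (adjusted p = 3.19e-07). Of 15 retinoid genes tested in MDA-MB-231, 3 rose and 2 fell in fusion, 1 rose and 1 fell in slippage, and 1 rose and 2 fell in cytokinesis failure, beside 17.4%, 6.18% and 4.64% of all genes, and DESeq2 called 2 in each of the 3.

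Pyrimidine metabolism is the setting of CDA. Of 30 listed genes tested in HCC1806, 2 rose in the fusion population, none was called in the slippage population (0 with edgeR, DESeq2 and limma, with 4 at an unadjusted p below 0.05 in edgeR) and 4 rose and 6 fell in the cytokinesis-failure population. In fusion and slippage that is 6.67% and 0 of the list, beside 10.9% and 3.33% of all genes. The 10 calls in cytokinesis failure, 33.3% of the list beside 17% of all genes, stood at 4 in DESeq2 and 5 with limma. The medians were 0.06, 0.02 and 0.03. DPYD, which starts the breakdown of uracil and fluorouracil, rose by 1.02 ± 0.26 after cytokinesis failure (edgeR adjusted p = 0.00211). DCTD, which deaminates deoxycytidylate, fell by 0.35 there (adjusted p = 0.000937). In MDA-MB-231, 5 rose and 5 fell in fusion, 1 rose and 3 fell in slippage, and 2 rose and 1 fell in cytokinesis failure, beside 17.4%, 6.18% and 4.64% of all genes, while DESeq2 called 7, 2 and 0 and limma 8, 0 and 0. NT5E, the surface 5′-nucleotidase CD73, rose by 0.45 ± 0.05 in the fusion population (adjusted p = 1.33e-08). TK1, the thymidine kinase of dividing cells, rose there by 0.37 ± 0.08 (adjusted p = 0.00118), a call lost on log2(TPM + 1).

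Most close relatives of the 6 genes were too low to test, 3 of 12 being tested in HCC1806. SNCB, a relative of SNCG, had at most 1 count in any library and METTL7B, a relative of METTL7A, at most 3. ALCAM, a receptor of the family of BCAM, fell by 0.33 in HCC1806 cytokinesis failure (edgeR adjusted p = 4.44e-09), where BCAM was higher.

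Over the 12 HCC1806 libraries, SNCG, METTL7A, BCAM, DHRS9 and G0S2 varied together, with Pearson correlations of log2 CPM from 0.82 to 0.95 in size between pairs, while CDA reached 0.38 to 0.58. These figures describe 12 libraries that fall into 4 populations and share the same controls, so they follow the population means that chose the genes. By the same measure, searched over 10485 genes, DHRS9 was closest to ITGA6 (r = 0.99), AREG (0.99) and STC2 (0.98). SNCG was closest to AMZ2P1, AGR2 and LAMA5 (0.97, 0.96 and 0.96), METTL7A to SNCG, EPS8L2 and LAMA5 (0.95, 0.94 and 0.93) and BCAM to NME4, RHOBTB3 and ZNF704 (0.96, 0.96 and 0.94). G0S2 was closest to XDH, LAMB3 and DHRS9 (0.96, 0.95 and 0.95). CDA was closest to PABPC1, PGD and EIF2AK2 (0.95, 0.95 and 0.94). Over the 12 MDA-MB-231 libraries the same pairs ranged from -0.17 to 0.59 where both genes were measured, with 1 exception.

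That exception was G0S2 with LAMB3, at r = 0.95 in HCC1806 and 0.89 in MDA-MB-231. In both lines the libraries fall into populations that share controls, so both figures follow the population means. The nearest edge of LAMB3 lies 23.0 kb before the start of G0S2 on chromosome 1, whichever way LAMB3 is read. LAMB3 is the nearest gene tested within 500 kb on either side. Both genes were lower in every doubled HCC1806 population and had positive fold changes in every doubled MDA-MB-231 population, where LAMB3 did not pass after cytokinesis failure (0.22, edgeR adjusted p = 0.0649). The fusion libraries of MDA-MB-231 were highest in both genes. Farther off in that stretch, C1orf74 and MIR205HG had HCC1806 log2 fold changes between -0.06 and 0.26, with MIR205HG called at 0.26 in cytokinesis failure (edgeR adjusted p = 0.0477), and C1orf74 was not called in MDA-MB-231. No other of the 6 genes had a nearest neighbour called in the same direction in all 3 HCC1806 populations. Their 5 to 13 tested neighbours within 500 kb included at most 3 called genes in any HCC1806 contrast with control, and the 3 beside BCAM in cytokinesis failure fell while BCAM was higher.

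**Figure D5:**
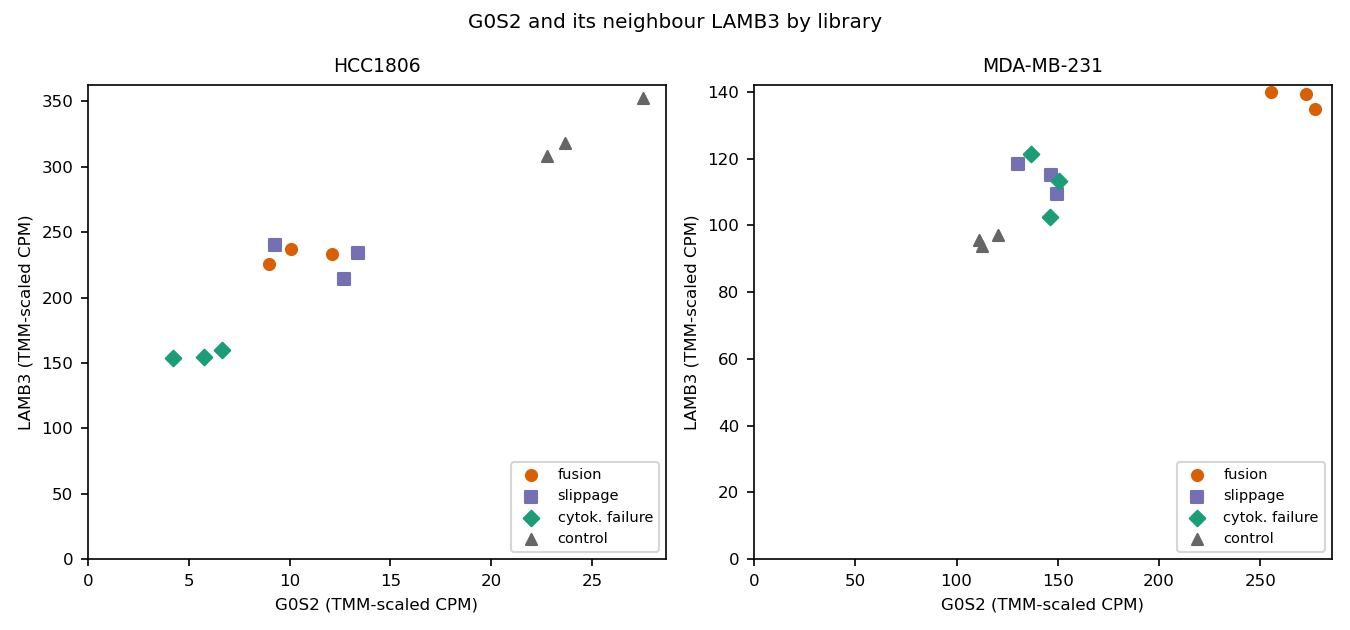
Level of G0S2 (horizontal) and LAMB3 (vertical) in TMM-scaled CPM, 1 point per library, in HCC1806 (left) and MDA-MB-231 (right). In HCC1806 the cytokinesis-failure libraries lie lowest and the control libraries highest on both axes, and in MDA-MB-231 the fusion libraries lie highest and the control libraries lowest on both.

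None of the 5 motifs searched occurred in the upstream windows of all 6 genes. Letters were searched on both strands in the 250 bases before each RefSeq start, and a match is a description of the letters only. AP-1 (TGANTCA) occurred in 6.57% of 35116 RefSeq windows, the GC box (GGGCGG) in 42.6%, the E-box (CACGTG) in 6.34%, TATAAA in 10.7% and CCAAT in 32.0%. BCAM and the second start of SNCG held GC boxes, and 3 of the 4 DHRS9 starts held TATAAA. METTL7A and the fourth start of DHRS9 each held 2 CCAAT matches. G0S2, CDA and the first start of SNCG held none of the 5, and no window held CACGTG.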

How the data were processed

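RNA of 24 libraries was read by TAGseq. Per the submitters' processing notes, STAR and Salmon were used with GRCh38 (hg38); versions, annotation, strand setting and any molecular identifiers are not given in the sources used here. The deposited table of estimated counts per gene holds Salmon estimates made by the authors, of which 4.41% are not whole, and these were rounded. The deposited TPM table, scaled by the authors per sample, served for an alternative.

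Each line was fitted by itself with edgeR 4.0.16 (R 4.3.3): default filtering, TMM scaling, the quasi-likelihood test over all 12 libraries and 4 groups, and Benjamini-Hochberg adjustment over all genes tested, with a threshold of 0.05. Errors of fold changes are approximate standard errors, derived from the log2 fold change and the F statistic of that test. The 95% intervals were built from them with the t distribution. Both cover replicate spread and counting error only. Alternatives were RLE scaling, DESeq2 1.42.0, limma 3.58.1 on log2(TPM + 1), no filter, at least 20 counts in 3 libraries, the 6 libraries compared, a replicate block and each replicate left out. The scripts were tested on simulated data.

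The members and the 5 gene lists were chosen with earlier results of these data known. From each list, up to 4 genes per contrast with the smallest adjusted p among those called were eligible to be named, and for each member the 3 genes with the highest correlation. PNPLA2, ABHD5, SNCB and METTL7B were named for their role or kinship in every contrast, and neighbours for their position. Some genes that this rule covers are not reported here. Promoter and gene positions are from RefSeq (GRCh38.p14), where METTL7A was matched as TMT1A and all 6 genes were found. The replicates are labelled biological.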

Additional observations from a re-analysis of the deposited data

Results flagged for a closer look

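G0S2 drew attention because all doubled libraries lay on opposite sides of control in the 2 lines. Its log2 fold changes over control in HCC1806 were -1.24 after fusion, -1.07 after slippage and -2.14 after cytokinesis failure. Those in MDA-MB-231 were 1.23, 0.31 and 0.34 for the same routes. SNCG did so after cytokinesis failure alone, with 1.46 in HCC1806 and -0.43 in MDA-MB-231, where the MDA-MB-231 value did not pass edgeR's test by itself. The lines were fitted apart, and the difference between them was not tested for either gene.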

How the results depend on the processing

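No value of the 6 genes changed sign where it had been called. The number of genes called over the whole table depended on the tool. DESeq2 called 648, 142 and 975 genes in HCC1806 fusion, slippage and cytokinesis failure against control, where edgeR called 1247, 382 and 1950. It called 1096, 295 and 528 for cytokinesis failure against fusion, cytokinesis failure against slippage and fusion against slippage, where edgeR called 2055, 780 and 1058. In MDA-MB-231 it called 1195, 343 and 302, where edgeR called 1993, 706 and 530. On log2(TPM + 1), limma called 706 in HCC1806 fusion, 88 in HCC1806 slippage, 372 for cytokinesis failure against slippage, 507 for fusion against slippage, and 169 and 178 in MDA-MB-231 slippage and cytokinesis failure. There the share of calls that were higher was 33.1% in HCC1806 fusion (49% with edgeR), 23.9% in slippage (45.8%), 65.3% in cytokinesis failure (49.2%) and 18.3% in MDA-MB-231 fusion (53.5%), where the median of all genes shifted by -0.105. It was 78.1% for cytokinesis failure against fusion (50%) and 75.5% for cytokinesis failure against slippage (40%). Leaving out 1 replicate gave 213 to 297 in HCC1806 slippage, 423 to 623 for cytokinesis failure against slippage, 372 to 594 in MDA-MB-231 slippage and 321 to 508 in MDA-MB-231 cytokinesis failure, and leaving out the 2 deviating MDA-MB-231 libraries together gave 728 and 689 in those last 2. Causes were not tested, although fewer samples enter when a replicate is left out.

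Same-numbered replicates did not deviate together (correlations of -0.178 to 0.088), which gave no sign of pairing but cannot exclude it. A replicate block gave 1236, 372 and 1941 calls in HCC1806 fusion, slippage and cytokinesis failure, 2042, 773 and 1063 for the route pairs, and 1854, 585 and 460 in MDA-MB-231, and changed no call of the 6 genes. Of 105 list-gene calls against control, 42 were kept in every alternative, 63 were lost in at least 1 and 0 changed sign. DESeq2 gave no adjusted p for 7 of the member values. METTL7A, BCAM and DHRS9 rest on few counts, which limits their precision. So does G0S2 in HCC1806, with 17 to 27 counts in cytokinesis-failure libraries and 83 to 88 in control libraries.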
